A study of Mus musculus with 12 samples.

Results

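The genes described here are 10 positive acute-phase genes of the liver: the serum amyloid A genes Saa1, Saa2, Saa3 and Saa4, the siderophore-binding lipocalin Lcn2, the orosomucoid genes Orm1, Orm2 and Orm3, haptoglobin (Hp) and C-reactive protein (Crp). They were named as a list and then looked up by symbol among 24527 gene symbols, where all 10 were found, and all 10 passed the filter on low counts that left 13204 genes for testing. The members were chosen by their known class and with their levels in these 12 libraries, group by group and library by library, in view, so their levels and group differences are given as a description, and no test of them is offered as support. The study compared livers of mice conceived by in vitro fertilization (IVF) with livers of naturally conceived mice at 39 weeks of age, in both sexes, with 3 animals in each of the 4 groups and 1 RNA-seq library per animal. Both natural groups and both IVF groups came from CF1 females and B6SJL males, and the labels name no treatment or transgene in any group. The IVF groups were made with a Jackson Laboratory protocol. The labels do not say whether animals shared a litter, a cage or a day of collection, so spread and p-values cover the differences between these samples only. The titles of IVF female replicate 1 and IVF male replicate 2 share a number whose meaning is not given.

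The acute-phase response is the rapid change in plasma proteins that follows infection, injury or other inflammation. Interleukin-6, acting through its receptor and the transcription factor STAT3, and interleukin-1, acting through NF-kB, reach hepatocytes and act together with C/EBP factors to raise transcription of a set of secreted proteins, while albumin and other proteins fall. Serum amyloid A proteins and orosomucoid are among the classic hepatocyte products of the mouse, whereas Crp, a leading acute-phase protein in humans, responds weakly in mice.

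Total counts ran from 6826534 to 22073863 in IVF females, from 8056230 to 23430136 in natural females, from 14002847 to 21762008 in IVF males and from 23448074 to 27832271 in natural males. The smallest totals belonged to IVF female replicate 1 and natural female replicate 2. Replicate numbers follow the order of deposit and only name a library. The livers carried hepatocyte genes in all 12 libraries, with albumin (Alb) between 44666 and 81524 CPM (counts scaled by library size), although Ass1, a urea cycle gene of the same marker list, was at 0.499 to 4.30 CPM. Levels below are CPM after TMM scaling, an edgeR correction for differences in composition between libraries. In bulk tissue, fewer cells of a type and less RNA per cell cannot be told apart.

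Sequence upstream of these genes is shown first because several members are near copies of each other and share a C/EBP-type motif, which C/EBP factors are known to bind. RefSeq promoter windows (GRCm38.p6) were found for 8 of the 10 members; Orm1 and Hp had no entry. In the 250 bases before the start, the motif TTGCNNAA on either strand occurred in 7 of the 8 members and in 9.56% of 32851 promoter windows of that length. The Lcn2 match lay inside an annotated exon of another Lcn2 transcript and is not printed. The STAT motif TTCNNNGAA occurred in 0 of the 8 (7.02% of all windows), the NF-kB consensus in 0 (7.25%) and TATAAA in 3, Orm2, Orm3 and Crp (12.4%). None of the motifs overlapped another in these windows. The stretches below run 5′ to 3′ on the gene's own strand, with the C/EBP match in capitals and up to 26 bases on each side, and they are grouped as near copies (Saa1 with Saa2, Orm2 with Orm3), followed by the more divergent Saa3 and Saa4.
Saa1, chr7:46743129-46743188, minus strand: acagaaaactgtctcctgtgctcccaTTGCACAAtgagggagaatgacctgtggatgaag
Saa2, chr7:46751624-46751683, plus strand: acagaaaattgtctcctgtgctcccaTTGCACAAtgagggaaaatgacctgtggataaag
Orm2, chr4:63362303-63362362, plus strand: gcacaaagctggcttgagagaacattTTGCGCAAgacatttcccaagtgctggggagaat
Orm3, chr4:63356011-63356070, plus strand: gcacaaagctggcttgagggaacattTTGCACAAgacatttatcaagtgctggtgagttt
Saa3, chr7:46715742-46715801, minus strand: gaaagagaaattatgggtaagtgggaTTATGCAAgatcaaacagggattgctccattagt
Saa4, chr7:46732622-46732681, minus strand: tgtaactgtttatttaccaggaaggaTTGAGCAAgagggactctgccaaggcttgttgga

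The whole 250-base windows of Saa1 and Saa2 were identical in 238 of 251 aligned columns (94.8%), and those of Orm2 and Orm3 in 218 of 255 (85.5%). Saa1 against Saa3 gave 48.5% and Saa1 against Saa4 46.3%, in the range of the unrelated pair Saa1 and Lcn2 (52.2%). The matches in Saa3 and Saa4 are printed as the reverse complement of the motif, and Saa4 held a further match 245 to 238 bases before its start. These matches describe letters in a window and show no binding.

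In GENCODE M21 (GRCm38) the 4 serum amyloid genes lie together on chromosome 7, Saa1 at 46740497 to 46742980 on the minus strand, Saa2 at 46751790 to 46754313 on the plus strand, Saa3 at 46711998 to 46715700 and Saa4 at 46727998 to 46732603, both on the minus strand. The 3 orosomucoid genes lie together on the plus strand of chromosome 4, Orm1 at 63344560 to 63348163, Orm3 at 63356162 to 63359511 and Orm2 at 63362449 to 63365878. Lcn2 lies on chromosome 2 at 32384633 to 32388252 (minus), Hp on chromosome 8 at 109575128 to 109579172 (minus) and Crp on chromosome 1 at 172698055 to 172833031 (plus). How the authors' counting treated reads that match more than 1 gene is not given in the sources used here. Of the 75-base windows of the reference transcripts, 4.67% of Saa1 and 4.70% of Saa2 recurred in the other gene, and so did 13.8% of Orm1 and 14.0% of Orm2, against 0.143% of Orm3 and 0 for the other members. Counts of Saa1 against Saa2 and of Orm1 against Orm2 are therefore uncertain in that part of their sequence.

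Saa1 and Saa2 encode the acute-phase serum amyloid A apolipoproteins that associate with high-density lipoprotein. Saa1 measured 1307, 595 and 105 CPM in the IVF females, 241, 394 and 93.9 in the natural females, 3122, 799 and 1672 in the IVF males, and 1765, 8490 and 4138 in the natural males. Natural male replicates 2 and 3 were above the other 10 libraries, and replicate 1 lay between the lowest and the highest IVF male. Saa2 measured 1177, 324 and 46.0 CPM in the IVF females, 107, 255 and 48.2 in the natural females, 2231, 438 and 1525 in the IVF males, and 1036, 10246 and 4371 in the natural males. The same 2 natural males were highest, and within each sex the IVF and natural libraries overlapped for both genes. Saa1 averaged 4798 ± 3411 CPM (SD, n = 3) in natural males and 1864 ± 1173 in IVF males, and 669 ± 605 in IVF females against 243 ± 150 in natural females. For Saa2 the means were 5218 ± 4663 and 1398 ± 903 CPM in natural and IVF males, and 516 ± 589 and 137 ± 107 in IVF and natural females. The spread within each of these groups was thus of the order of its mean.

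The ratio of Saa2 to Saa1 counts was not constant. It was 1.21 and 1.06 in natural male replicates 2 and 3, the only libraries with more Saa2 than Saa1, and between 0.440 and 0.912 in the other 10. The libraries with the next highest ratios were IVF male replicate 3 (0.912) and IVF female replicate 1 (0.900). The ratio rests on counts that the 2 genes may partly share.

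Saa3, the inducible serum amyloid A known mainly from macrophages and adipose tissue and also made by inflamed liver, was at a low level in most livers. Its values were 3.86, 6.65 and 1.58 CPM in IVF females, 2.97, 5.27 and 3.88 in natural females, 13.9, 4.28 and 4.00 in IVF males, and 6.26, 174 and 115 in natural males. Natural male replicates 2 and 3 stood 12.5-fold and 8.27-fold above the highest of the other 10 libraries, IVF male replicate 1. Saa4, the constitutive serum amyloid A, showed no such pattern, with 883, 267 and 310 CPM in IVF females, 212, 771 and 180 in natural females, 274, 389 and 662 in IVF males, and 488, 587 and 502 in natural males. Its highest libraries were the small-total IVF female replicate 1 and natural female replicate 2, and the natural males spanned only 1.20-fold. Per kilobase of the reference transcript, mean levels in natural males were 8610 ± 7695 CPM per kb for Saa2, 7878 ± 5601 for Saa1, 251 ± 25.6 for Saa4 and 177 ± 153 for Saa3. In natural females the order was Saa1 at 399 ± 246, Saa2 at 226 ± 176, Saa4 at 185 ± 159 and Saa3 at 7.28 ± 2.09 CPM per kb, so that the first 3 were within their spread of each other there.

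Lcn2 (lipocalin 2) binds bacterial siderophores and limits the iron available to bacteria; it is made by inflamed hepatocytes and is also a neutrophil granule protein. It measured 181, 25.2 and 48.8 CPM in IVF females, 46.4, 90.6 and 9.27 in natural females, 57.2, 13.0 and 13.0 in IVF males, and 14.7, 1615 and 1173 in natural males. The 2 high natural males were 8.93-fold and 6.48-fold above the highest other library, IVF female replicate 1, while natural male replicate 1 sat among the IVF males. Natural male replicate 2 exceeded replicate 1 by 110-fold, the largest such ratio among the 10 members. With a prior count of 2 added before the log2, the range of Lcn2 within the natural males was 6.77 on the log2 scale (109-fold), against a median range of 0.37. Of the 9095 genes averaging at least 5 CPM only Lcn2 itself reached that range (0.011%). Not every member ranged widely there: 68.5% of these genes had at least the range of Saa4 and 59.7% that of Crp.

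**Figure D1:**
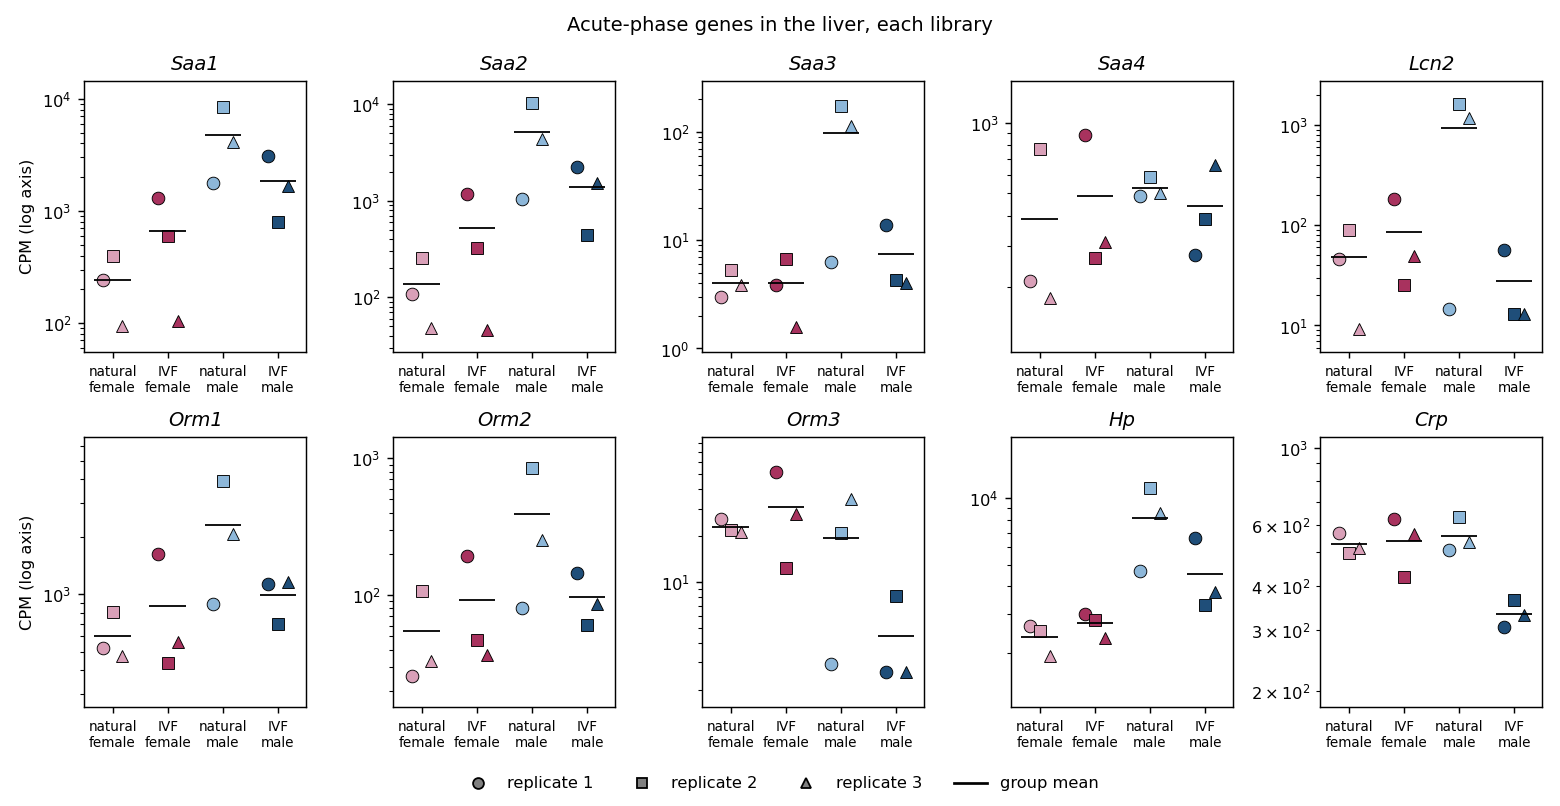
CPM of each of the 10 genes (log axis, TMM scaled) in every library, by group; symbols are the 3 replicates and the horizontal line is the group mean. Natural male replicates 2 and 3 are above all other libraries for Saa1, Saa2, Saa3, Lcn2, Orm1, Orm2 and Hp, and natural male replicate 1 is within the range of the IVF males for 9 of the 10 genes.

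The orosomucoids (alpha-1-acid glycoproteins) are drug-binding and lipid-binding plasma glycoproteins. Orm1 measured 1618, 433 and 563 CPM in IVF females, 521, 806 and 473 in natural females, 1131, 697 and 1158 in IVF males, and 888, 3939 and 2073 in natural males. Orm2 measured 193, 47.2 and 36.5 CPM in IVF females, 25.8, 107 and 33.1 in natural females, 145, 60.2 and 85.5 in IVF males, and 80.4, 847 and 253 in natural males. For both genes natural male replicates 2 and 3 were again above the other 10 libraries. Orm2 counts were 21.5% of Orm1 counts in natural male replicate 2 and between 4.94% and 13.2% in the other 11 libraries, with the reservation on shared sequence given above. Orm3 followed another order, with 51.8, 12.3 and 27.7 CPM in IVF females, 25.8, 21.7 and 21.0 in natural females, 2.61, 8.12 and 2.60 in IVF males, and 2.92, 20.8 and 34.4 in natural males. The IVF males all lay below the IVF females, and natural male replicates 2 and 3 were at the level of the females. As a share of Orm1 counts, Orm3 was 2.69% to 4.95% in the 6 females and 0.225% to 1.66% in the 6 males, with no overlap. Per kilobase in natural males, the mean level of Orm1 was 2967 ± 1985 CPM per kb, against 508 ± 519 for Orm2 and 25.0 ± 20.4 for Orm3.

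Hp (haptoglobin) binds free hemoglobin for clearance. It measured 3015, 2821 and 2335 CPM in IVF females, 2663, 2509 and 1931 in natural females, 6625, 3301 and 3783 in IVF males, and 4679, 11185 and 8586 in natural males. All 6 males were above all 6 females, and the 2 high natural males were 1.69-fold and 1.30-fold above the highest other library. Crp, a pentraxin that binds phosphocholine on microbes and dying cells, measured 622, 426 and 565 CPM in IVF females, 569, 497 and 514 in natural females, 305, 366 and 331 in IVF males, and 508, 632 and 537 in natural males. The IVF males were below the other 9 libraries, and the whole range over 12 libraries was 2.07-fold, the narrowest of the 10 genes (Saa2, the widest, spanned 223-fold). Crp was the only member for which natural male replicate 1 fell outside the IVF male range, and it lay above it.

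The natural males were not alike in these genes. Natural male replicates 2 and 3 were both above the other 10 libraries for 7 of the 10 members, a pattern present in 2.23% of all genes tested, and natural male replicate 2 was the highest of the 12 libraries for 8 of 10, against 4.26% of all genes. IVF female replicate 1 was highest for the other two, Saa4 and Orm3. Natural male replicate 1 was within the range of the IVF males for 9 of 10 members, against 50.2% of all genes. Relative to replicate 1, natural male replicate 2 was higher by 27.8-fold for Saa3, 10.5-fold for Orm2, 9.89-fold for Saa2, 7.10-fold for Orm3, 4.81-fold for Saa1, 4.44-fold for Orm1, 2.39-fold for Hp, 1.25-fold for Crp and 1.20-fold for Saa4. These libraries were singled out after their values were seen, so the counts describe the libraries and are not a comparison of groups.

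The 10 genes together took 3.22% of all counts in natural male replicate 2 (Wilson 95% interval 3.22% to 3.23%, counting error only) and 1.98% in natural male replicate 3. The share was 0.855% in natural male replicate 1, between 0.587% and 1.45% in IVF males, 0.428% to 0.893% in IVF females and 0.399% to 0.565% in natural females. Saa1 and Saa2 made up 1.60% of all counts in natural male replicate 2 and 0.0160% in IVF female replicate 3, the lowest of the 12 libraries. Hp alone took 0.955% and 0.247% in the same libraries.

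**Figure D2:**
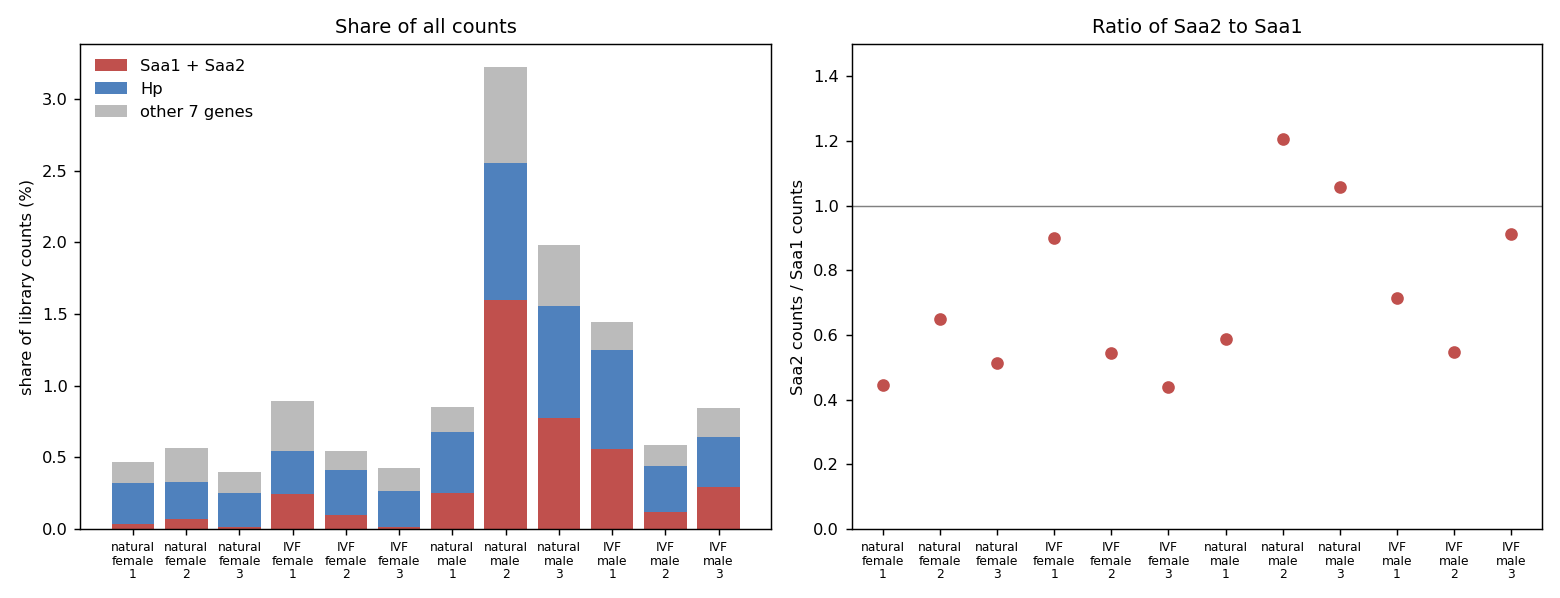
Left, share of each library's counts (%) taken by Saa1 with Saa2, by Hp and by the other 7 genes; right, ratio of Saa2 to Saa1 counts in each library, with a line at 1. Natural male replicate 2 has the largest share (3.22%), and natural male replicates 2 and 3 are the only libraries with a ratio above 1.

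In the males, all 10 genes had lower fitted levels in IVF than in natural livers, with log2 fold changes (IVF over natural, edgeR, ± SE) of -5.08 ± 1.45 for Lcn2, -3.75 ± 0.96 for Saa3, -2.11 ± 0.76 for Orm3, -2.02 ± 0.87 for Orm2, -1.90 ± 1.07 for Saa2, -1.36 ± 0.84 for Saa1, -1.21 ± 0.56 for Orm1, -0.83 ± 0.35 for Hp, -0.74 ± 0.19 for Crp and -0.25 ± 0.58 for Saa4. Their median was -1.63, against 0.01 over all genes tested. With edgeR's quasi-likelihood test and Benjamini-Hochberg adjustment, 0 of the 10 passed an adjusted p of 0.05 in this comparison, where 0.00757% of all genes did. At an unadjusted p under 0.05 there were 6 (2.69% of all genes). DESeq2 called 1, Saa3, among 5 of all 13204 genes, and limma voom 0. Crp was the only member whose IVF and natural males did not overlap, with IVF lower, as in 4.07% of all genes (4.85% were higher without overlap). The means were 334 ± 30.5 CPM in IVF males and 559 ± 65.2 in natural males. The negative sign held for all 10 under each of the 20 alternatives, but the size did not: leaving out natural male replicate 2 moved Orm2 to -0.79, Saa2 to -0.95, Saa1 to -0.67 and Orm1 to -0.58. Saa4 was at -0.0021 without IVF male replicate 1. No alternative left out natural male replicates 2 and 3 together, so the sign was not checked without them. Natural male replicate 1 was below the IVF male mean for Lcn2 (0.53-fold), Orm3 (0.66), Saa2 (0.74), Orm2 (0.83), Saa3 (0.85), Orm1 (0.89) and Saa1 (0.95). It was above that mean for Hp (1.02), Saa4 (1.10) and Crp (1.52).

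In the females, the 10 fitted differences were positive, from 0.03 ± 0.19 for Crp and 0.03 ± 0.94 for Saa3 to 1.46 ± 0.85 for Saa1 and 1.91 ± 1.08 for Saa2, with Lcn2 at 0.80 ± 1.24, Orm2 at 0.74 ± 0.85 and Hp at 0.20 ± 0.35. They were smaller in size than in the males except for Saa1, Saa2 and Saa4 (0.33 ± 0.58), which were slightly larger. The median was 0.47, against -0.01 over all genes. By edgeR 0 of the 10 passed, as did 0% of all genes, and 0 had an unadjusted p under 0.05 (3.70% of all genes); DESeq2 and limma voom also called 0. IVF and natural females overlapped for all 10, whereas 3.55% of all genes were higher and 3.87% lower without overlap. IVF female replicate 1, which had the smallest total count, was the highest of its group for 9 of the 10 members, against 40.8% of all genes, and natural female replicate 2 for 7 of 10, against 38.8%. Without IVF female replicate 1 the difference became 0.57 for Saa1 and 0.48 for Saa2, and it turned negative for Orm1 (-0.25), Orm2 (-0.36), Lcn2 (-0.36), Saa4 (-0.40), Orm3 (-0.18) and Crp (-0.07). Saa3 turned negative without IVF female replicate 2 (-0.65), without natural female replicate 1, with limma voom and with scaling by library size alone. Crp also turned negative with library size alone and without IVF female replicate 3, natural female replicate 2 or both small libraries, and Orm3 without both small libraries (-0.22). Saa4 was at 0 to 2 decimals without natural female replicate 3. The part that depth or the handling of these 2 libraries played was not tested.

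**Figure D3:**
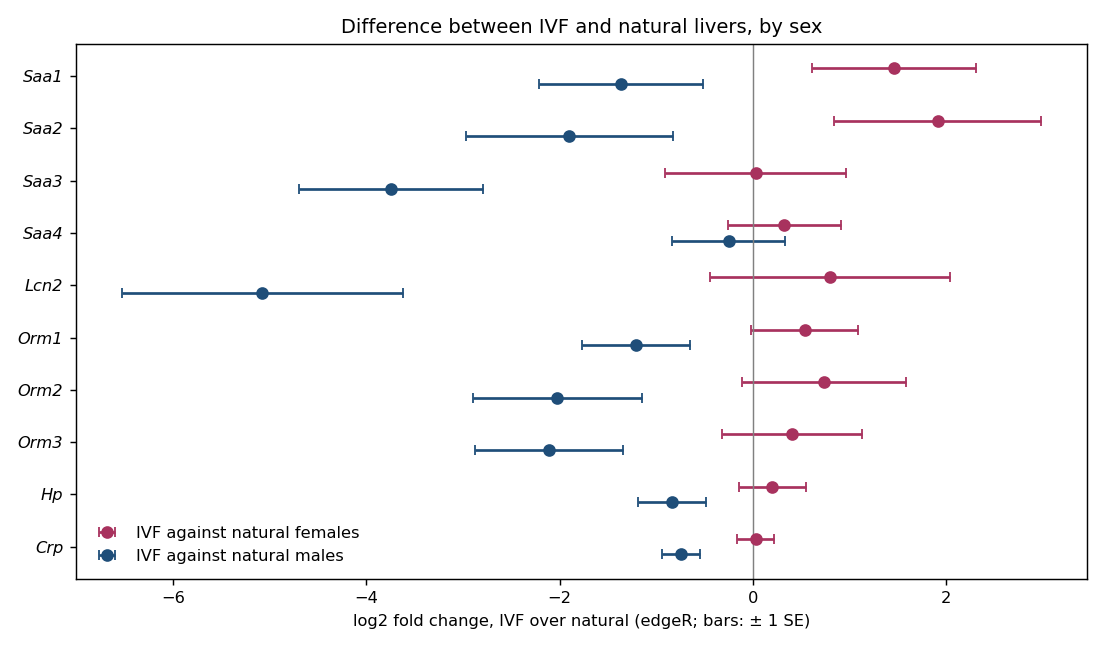
Log2 fold change of IVF over natural livers for each gene in females and in males (edgeR), with bars of ± 1 SE. All 10 male values are below 0, from -0.25 (Saa4) to -5.08 (Lcn2), and all 10 female values are above 0, up to 1.91 (Saa2), with bars that cross 0 for 8 of the 10 genes.

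The difference between the sexes in the IVF effect (male minus female) was negative for all 10, from -0.58 ± 0.83 for Saa4 to -5.88 ± 1.87 for Lcn2, with a median of -2.64 against 0.03 over all genes. In edgeR's interaction term 0 of the 10 passed, as did 0% of all genes; 8 had an unadjusted p under 0.05 (3.87% of all genes), and DESeq2 and limma voom called 0. Saa4 changed sign to 0.14 when IVF female replicate 1 was left out. This contrast uses the same 12 libraries as both comparisons above and adds no separate evidence.

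Between the sexes, 9 of the 10 genes had a higher fitted level in natural males than in natural females. Male over female log2 fold changes in natural livers were 5.25 ± 1.25 for Saa2, 4.63 ± 1.01 for Saa3, 4.30 ± 0.95 for Saa1, 4.27 ± 1.40 for Lcn2, 2.84 ± 0.90 for Orm2, 1.94 ± 0.57 for Orm1 and 1.78 ± 0.36 for Hp. Saa4 (0.44 ± 0.58), Crp (0.09 ± 0.19) and Orm3 (-0.24 ± 0.72) were near 0, and Crp took the opposite sign with scaling by library size alone (-0.23) and without natural male replicate 2 (-0.02). Orm3 turned positive without natural male replicate 1 (0.27), and Saa4 became 1.42 without natural female replicate 2. By edgeR 3 of the 10 (Saa1, Saa3 and Hp) passed an adjusted p of 0.05, all higher in males, where 1.77% of all genes passed and 0.894% were higher. DESeq2 called 6 members and 678 of all 13204 genes, and limma voom 2 members and 232 genes. Males and females did not overlap for 5 members, all higher in males (Saa1, Saa2, Saa3, Orm1 and Hp; 10.1% of all genes were higher and 9.85% lower). The 3 calls fell to 0 when any natural female or natural male replicate 2 or 3 was left out. They fell to 1 without IVF female replicate 2, IVF male replicate 2 or IVF male replicate 3, and to 0 without both libraries of small total count.

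In IVF livers the corresponding values were 1.48 ± 0.85 for Saa1, 1.44 ± 1.06 for Saa2, 0.85 ± 0.92 for Saa3, 0.75 ± 0.35 for Hp, 0.19 ± 0.56 for Orm1, 0.08 ± 0.85 for Orm2, -0.14 ± 0.58 for Saa4, -0.69 ± 0.19 for Crp, -1.61 ± 1.26 for Lcn2 and -2.76 ± 0.78 for Orm3. By edgeR 0 of the 10 passed, where 2.19% of all genes did (0.909% higher and 1.28% lower), and 2 had an unadjusted p under 0.05 (14.9% of all genes). DESeq2 called 2 members, Crp and Orm3, and 721 of all 13204 genes. Limma voom called 0 members and 279 genes. Without overlap, Hp was higher in IVF males (11.8% of all genes), and Orm3 and Crp were lower (10.1%). Orm3 averaged 4.44 ± 3.18 CPM in IVF males and 30.6 ± 19.9 in IVF females, the widest of the 10 differences on the log2 scale. Orm1, Orm2 and Saa4 changed sign here when single IVF libraries were left out, Orm2 to -0.33 without IVF male replicate 1 and Saa4 to 0.58 without IVF female replicate 1. Without IVF female replicate 1, Saa2 moved to 2.87, Saa1 to 2.37, Orm2 to 1.17, Orm1 to 0.97 and Lcn2 to -0.45. Without IVF male replicate 1, Saa3 moved to 0.04, Saa1 to 0.89, Hp to 0.38 and Lcn2 to -2.70.

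The 10 genes did not vary as a single block. The level of each gene was set against an index, the mean of the other 9 genes after log2 transformation and centring, over the 12 libraries, which the genes share with their depth. Orm2 (Pearson r 0.95, Spearman rho 0.97) and Orm1 (0.95 and 0.87) followed the index most closely, then Hp (0.87 and 0.80), Saa3 (0.86 and 0.66), Lcn2 (0.84 and 0.69), Saa2 (0.84 and 0.87) and Saa1 (0.81 and 0.87). Saa4 (0.53 and 0.69), Crp (0.24 and 0.14) and Orm3 (0.05 and -0.02) followed it least. Without natural male replicates 2 and 3, the 2 libraries farthest from the median of the index, r over 10 libraries was 0.93 for Orm2 and 0.86 for Orm1 but 0.42 for Saa3 and 0.43 for Lcn2. It was 0.72 for Saa2, 0.69 for Saa1, 0.65 for Saa4 and 0.57 for Hp, and negative for Crp (-0.23) and Orm3 (-0.40). The likeness of Saa3 and Lcn2, and in part that of Hp, thus rested on these 2 libraries.

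Among 9085 other genes averaging at least 5 CPM, the 8 whose levels were most like the index of the 10 were Pzp (r 0.96), Ambp (0.93), Hpx (0.92), Itih4 (0.92), Dynll1 (0.91), Serpina3n (0.91), Aga (0.90) and Sox9 (0.88). Pzp encodes a plasma alpha-macroglobulin protease inhibitor, Ambp the precursor of alpha-1-microglobulin and bikunin, Hpx the heme-binding hemopexin, Itih4 an inter-alpha-trypsin inhibitor heavy chain and Serpina3n a serine protease inhibitor. Pzp was 1.82-fold higher in natural male replicate 2 than in replicate 1, Ambp 1.71-fold, Itih4 2.28-fold, Serpina3n 3.64-fold and Hpx 3.79-fold. Dynll1 was 2.34-fold higher, Aga 1.85-fold and Sox9 1.75-fold. Hpx and Serpina3n thus lay between Hp and Orm1 in this ratio. Without natural male replicates 2 and 3, r over 10 libraries was 0.54 for Serpina3n and 0.65 for Hpx. It was between 0.70 and 0.87 for the rest of the 8. The 4 genes most opposed were Mynn (r -0.95), March7 (-0.90), B4galnt1 (-0.89) and Krt23 (-0.89). Krt23, a keratin, measured 0.250 and 0.395 CPM in natural male replicates 2 and 3, 2.15 in replicate 1, and 0.297 in IVF female replicate 1, against up to 27.3 in natural female replicate 1.

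Other positive acute-phase genes, a list of 23 that includes fibrinogen, complement, hemopexin and metallothionein genes, moved less. In males their median log2 difference between IVF and natural livers was -0.72, with 21 of 23 negative, whereas 51.6% of all genes were positive; by edgeR 0 passed, 8 had an unadjusted p under 0.05 (2.69% of all genes), and DESeq2 and limma voom called 0. Those with the smallest p were Mt2, a metal-binding metallothionein (-2.38 ± 0.63, adjusted p = 1 by edgeR), Serpina3n (-1.38 ± 0.41) and Itih3 (-0.98 ± 0.33). Serpina3n averaged 697 ± 145 CPM in IVF males and 1814 ± 985 in natural males, where replicates 2 and 3 measured 2484 and 2274 and replicate 1 measured 683. In females the median was 0.21, with 16 of 23 positive (47.8% of all genes); 0 passed by edgeR, DESeq2 or limma voom, and 1 had an unadjusted p under 0.05 by edgeR (3.70% of all genes). Itih3 had 0.58 ± 0.33 in females. Natural males exceeded natural females in 2 of the 23 by edgeR, where 1.77% of all genes passed and 0.894% were higher. The 2 were Lrg1, a secreted leucine-rich glycoprotein (2.18 ± 0.47, adjusted p = 0.0383 by edgeR), and Hpx (1.996 ± 0.44, adjusted p = 0.0430). Lrg1 averaged 858 ± 398 CPM in natural males and 189 ± 74.3 in natural females, and Hpx 7340 ± 4060 and 1840 ± 169. Leaving out any natural female, natural male replicate 2 or 3, IVF female replicate 2 or 3 or IVF male replicate 2 took the adjusted p by edgeR above the threshold, to between 0.0503 and 0.156 for Lrg1 and between 0.0543 and 0.158 for Hpx, which was also lost without IVF male replicate 3 (0.0576). Both natural male replicates 2 and 3 were above the other 10 libraries for 6 of the 23, against 2.23% of all genes tested. Hamp, the iron hormone hepcidin and another interleukin-6 target, went the other way, at 2.85 CPM in natural male replicate 2, the lowest of the 12 libraries, 180 in replicate 3 and 287 in replicate 1; it was chosen after its values were seen.

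**Figure D4:**
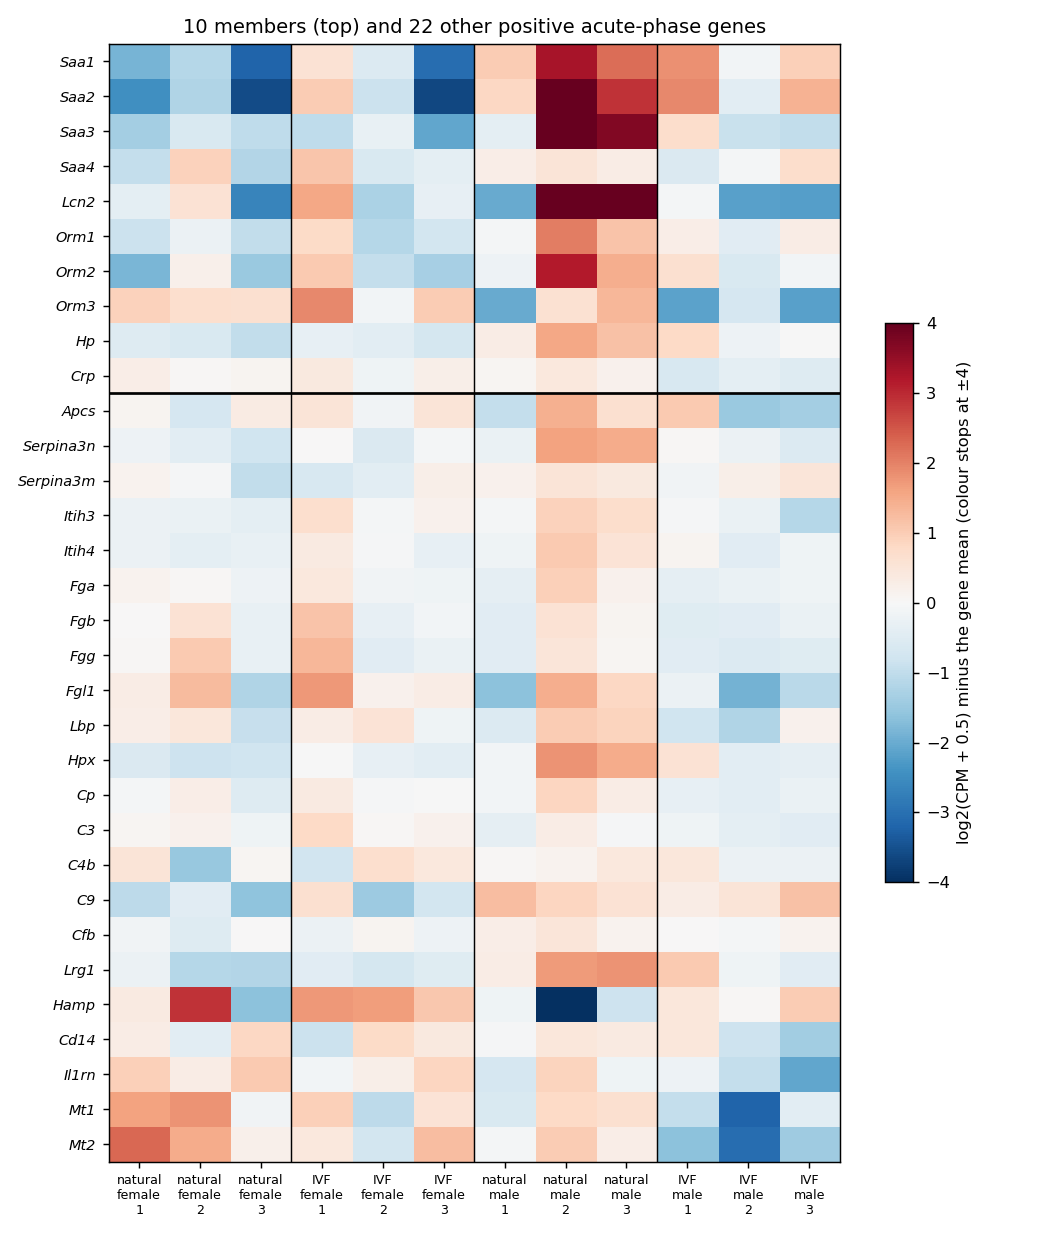
Level of the 10 genes (above the line) and of 22 other positive acute-phase genes in each library, as log2(CPM + 0.5) from which the average of that gene across the 12 libraries was subtracted; colours stop at ± 4. Natural male replicates 2 and 3 stand out for Saa1, Saa2, Saa3, Lcn2 and Orm2, with weaker colour for Serpina3n, Hpx and Lrg1, and Hamp is low in natural male replicate 2.

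Negative acute-phase genes, which normally fall when the positive ones rise, differed little between IVF and natural livers. Of 14 tested, 0 passed by edgeR, DESeq2 or limma voom in females or in males. At an unadjusted p under 0.05 by edgeR there were 0 in females (3.7% of all genes) and 0 in males (2.69%). The medians were 0.11 in females and -0.19 in males, the latter with the same sign as the positive genes. Ahsg (fetuin-A) had a difference of -0.44 ± 0.23 in males, Trf (transferrin) -0.46 ± 0.28 and Apoa1, the main apolipoprotein of high-density lipoprotein, -0.33 ± 0.27. In females the smallest p belonged to Serpina6, the corticosteroid-binding globulin (0.60 ± 0.28), and Fetub (0.25 ± 0.24). In IVF livers Serpina6 was lower in males than in females (-1.38 ± 0.29, adjusted p = 0.0281 by edgeR), with 209 ± 26.5 CPM in males and 546 ± 195 in females. Leaving out any single IVF library other than IVF female replicate 3 raised the adjusted p by edgeR to between 0.0832 and 0.115.

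Of the 22 cytokine signalling genes, 17 passed the filter. Il22 was at 0 counts in all libraries, and Il6 was at most 0.148 CPM. Between IVF and natural livers 0 passed by edgeR, DESeq2 or limma voom in either sex. At an unadjusted p under 0.05 by edgeR there were 0 in females (3.7% of all genes) and 1 in males (2.69%). That gene was Il6ra, the ligand-binding interleukin-6 receptor chain (-1.01 ± 0.36), which averaged 43.0 ± 15.4 CPM in IVF males and 86.3 ± 42.1 in natural males. Its highest library was natural male replicate 1, at 133 CPM, and not replicates 2 and 3 (52.3 and 73.3 CPM), where 7 of the 10 members were above the other libraries. Il1r1, the signalling interleukin-1 receptor, had -0.80 ± 0.37 and Stat3 -0.42 ± 0.20 in males. Il1r1 was also highest in natural male replicate 1, at 163 CPM. It measured 58.9 and 79.1 CPM in natural male replicates 2 and 3 and 43.8 to 73.3 in IVF males. In females Stat3 had 0.30 ± 0.20 and Irak4, a kinase of interleukin-1 signalling, 0.47 ± 0.27.

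Among transcription factors and induced targets of the same pathways, 22 of 23 were tested, and 0 passed between IVF and natural livers in either sex by edgeR, DESeq2 or limma voom. By edgeR 1 had an unadjusted p under 0.05 in females (3.7% of all genes), Steap4, an iron and copper reductase (0.61 ± 0.25). In males 0 did (2.69% of all genes). Cxcl1, a neutrophil chemokine, had 1.31 ± 0.78 in females. In males Tnfaip3, an inhibitor of NF-kB signalling, had -0.50 ± 0.27, Steap4 -0.45 ± 0.25 and Socs3, the feedback inhibitor of STAT3 signalling, -0.88 ± 0.62, which turned to 0.12 without natural male replicate 2. Of 12 receptor and clearance genes 0 passed between IVF and natural livers by the same 3 tools. At an unadjusted p under 0.05 by edgeR there was 1 in females (Cd36, 1.06 ± 0.47; 3.7% of all genes) and 0 in males (2.69%). In males 11 of the 12 were negative, with a median of -0.45, whereas 51.6% of all genes were positive. The negative ones included Tlr4, the receptor for lipopolysaccharide (-0.55 ± 0.27), the lipoprotein receptor Scarb1 (-0.67 ± 0.38) and the Lcn2 receptor Slc22a17 (-0.72 ± 0.44). Slc22a17 rested on few counts, 5, 10 and 7 in IVF males and 12, 17 and 15 in natural males. Tlr4 had 0.31 ± 0.27 in females. In IVF livers Cd36, a fatty acid and lipoprotein receptor, was lower in males than in females (-2.18 ± 0.48, adjusted p = 0.0391 by edgeR), at 27.4 ± 9.67 against 124 ± 74.1 CPM. With the 12 libraries left out in turn, 7 took its adjusted p by edgeR above the threshold, to between 0.0519 and 0.183: IVF female replicates 2 and 3, the 3 IVF males and natural male replicates 1 and 2.

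Markers of other cells that make some of these proteins were set beside them. The 14 neutrophil markers summed to 2.79, 10.2 and 9.25 CPM in natural males and to 2.76 to 12.5 in IVF males, 6.92 to 10.3 in IVF females and 5.03 to 7.24 in natural females. Of the 14, 7 never reached 1 CPM, and Camp and Elane were at most 0.0999 and 0.297 CPM. Prtn3 measured 4.99 and 3.40 CPM in natural male replicates 2 and 3, the largest part of both sums, against 0.0914 in replicate 1. Of the others that reached 1 CPM, S100a8, S100a9, Cxcr2 and Mmp9 were also higher in replicates 2 and 3 than in replicate 1. Csf3r was level, at 1.10, 1.10 and 1.11 CPM in natural males. Ly6g was lower in replicates 2 and 3 (0.699 and 0.553 CPM) than in replicate 1 (1.10). The neutrophil sum was higher in the 2 natural males with high Lcn2 than in replicate 1, and the highest sum of all was in IVF male replicate 1, where Lcn2 was 57.2 CPM. The 12 Kupffer cell markers summed to 435 to 487 CPM in natural males and 244 to 409 in IVF males, without overlap, and to 463 to 690 in the females. Not all markers followed their sum. Lyz2 and Cd68 were highest among the males in IVF male replicate 1 (83.3 and 14.1 CPM), and Marco and Timd4 also overlapped. The other markers were each lower in IVF males without overlap, as were 4.07% of all genes. The 6 adipocyte markers summed to 4.07, 7.34 and 7.04 CPM in natural males, the highest sums being those of replicates 2 and 3. They summed to 3.75 to 5.77 CPM in IVF males, 2.87 to 4.16 in IVF females and 2.49 to 5.99 in natural females. Fabp4 was the only 1 of the 6 to reach 1 CPM in any library and made up most of every sum. It measured 4.02, 6.69 and 6.996 CPM in natural males. Adipoq, Plin1 and Cfd were at most 0.0984, 0.137 and 0.961 CPM, and Retn and Lep were at 0 in all libraries. The adipocyte sums thus mainly give the level of Fabp4. The 7 immediate early and heat shock genes summed to 203, 420 and 534 CPM in natural males, 177 to 359 in IVF males, 89.5 to 227 in IVF females and 57.4 to 130 in natural females, and the 2 highest sums were those of natural male replicates 3 and 2. These sums weigh abundant genes most. The mean of the 7 after log2 transformation and centring was highest in IVF male replicate 2 (0.66). It was 0.54 in IVF male replicate 1 and 0.52 in IVF female replicate 1, above natural male replicates 3 (0.41) and 2 (0.38). The part of these markers in the levels of the 10 genes was not tested.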

How the data were processed

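Poly-A RNA from 12 mouse livers was sequenced on an Illumina NextSeq instrument, per the labels' protocols. The deposited values are whole-number counts per gene symbol in 1 table with a column per library, and 0 of its columns belonged to no sample. Trimmomatic 0.32, STAR 2.3.0e, featureCounts 1.5.0 and the build mm10 are named in the submitters' processing notes; the annotation, strandedness and handling of multi-mapping reads are not given in the sources used here.

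Columns were matched to libraries by title. Genes were filtered by group with filterByExpr, scaled by TMM and fitted with edgeR 4.0.16 (quasi-likelihood, R 4.3.3) to 4 group means over all 12 libraries, giving 5 contrasts with p-values adjusted by Benjamini-Hochberg over all 13204 genes tested and called under 0.05. SE is the absolute log2 fold change over the square root of the F statistic. Alternatives were 8 settings, among them DESeq2 1.42.0 and limma 3.58.1 (voom), and leaving out each of the 12 libraries. The scripts were tested on simulated counts. Total counts per library (6826534 to 27832271) set the precision: intervals of shares are Wilson 95% intervals and cover counting error only.

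All 10 genes are named, and from each of 5 other gene lists every gene called in any contrast, plus the 3 smallest unadjusted p-values between IVF and natural males and the 2 smallest between the females; 1 gene that this rule names is not reported here. The 8 most and 4 least similar genes follow the correlation with the members' index. Members, lists and rules were chosen with earlier results of these data known. Per-kilobase levels use the length of the GENCODE M21 reference transcript. Promoter sequences come from RefSeq (GRCm38.p6).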

Additional observations from a re-analysis of the deposited data

How the results depend on the processing

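The counts of genes passing edgeR's adjusted threshold of 0.05 changed as follows. Of the 10 members, DESeq2 called 1 between IVF and natural males, 6 between natural males and females (3 as reported) and 2 between IVF males and females, where scaling by library size alone gave 1. For the natural sexes, library size alone and the use of no filter on low counts each called Saa2 beside the 3 reported. Limma voom gave 2 and a fit of only the libraries compared gave 1. Removing both small libraries (IVF female replicate 1 and natural female replicate 2) gave 0, and leaving out 1 library at a time gave 0 to 3. Without IVF female replicate 1 or 3, Saa2 was called in place of Saa3. For the IVF sexes the range with 1 library left out was 0 to 1. Of the other positive genes between natural sexes (2 as reported), library size alone, limma voom and removal of both small libraries gave 1, DESeq2 5, only the libraries compared 0, and leaving out 1 library 0 to 3; between IVF sexes DESeq2 and removal of both gave 1. Of the negative genes between IVF sexes (1 as reported), DESeq2 gave 3, only the libraries compared and removal of both 0, and leaving out 1 library 0 to 1; between natural sexes library size alone gave 1. Of the receptor and clearance genes between IVF sexes (1 as reported), DESeq2 gave 3, limma voom and only the libraries compared 0, and leaving out 1 library 0 to 1; between natural sexes DESeq2 gave 1, as for the transcription factor and target list. The cause was not tested, except that fewer libraries enter some of these fits. Socs3 changed from -0.88 to 0.12 in males without natural male replicate 2 (range -1.32 to 0.12 with 1 library left out). No count for IVF against natural females or for the interaction moved in any of these settings. Library size alone shifted the median of all genes to -0.34 between natural males and females and to 0.14 between IVF and natural males, and called 510 genes between the natural sexes against 234; DESeq2 called 678 there and 721 against 289 between the IVF sexes, and only the libraries compared gave 139 between the natural sexes. No paired analysis was possible because replicate numbers follow the order of deposit and no label states that libraries of different groups are paired; 1 IVF female and 1 IVF male share a number in their titles whose meaning is not given. The lowest counts of a member were 26 for Saa3 (IVF female replicate 1) and 38 for Orm3 (IVF male replicate 1), which limits the precision of both genes there.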
